A study of Mus musculus with 8 samples.

Results

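The serotonin receptor genes of the ventral tegmental area (VTA) were examined in SS and CTR mice. The family was taken as the genes Htr1a, Htr1b, Htr1d, Htr2a, Htr2b, Htr2c, Htr4, Htr5b, Htr6 and Htr7. These are 10 of the 54735 genes in the count table, chosen by name, but with earlier results of these data known. RNA came from bilateral VTA punches of 0.5 mm diameter, 1 library per mouse, with 4 CTR and 4 SS libraries. All mice were DBA2/J pups labelled male and aged P21 by the labels (PD 22 by the methods of the study). SS pups had spent 30 min per day with an unfamiliar gonadectomized adult CD1 male from PD 14 to 21, and CTR litters were left unhandled. The punches hold every cell type of the area, and in such bulk RNA fewer cells of a type and less RNA per cell cannot be told apart. Libraries are named by group and number, as CTR-1 or SS-2.

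Serotonin reaches the VTA from the raphe nuclei of the hindbrain, and its receptors there sit on dopamine neurons, on GABA neurons and on incoming axons. Except for the ion channel subunits encoded by Htr3a and Htr3b, the receptors are coupled to G proteins. Receptors of the type 1 group act through Gi/o and lower cAMP, those of the type 2 group act through Gq and phospholipase C, and the products of Htr4, Htr6 and Htr7 act through Gs and raise cAMP. The coupling of the Htr5b receptor is less clear.

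Library totals ranged from 20036086 to 47319997 counts. Values are given as CPM, counts per M counts of the normalized library, and receptor levels are ranked as CPM per kb of exon. The labelled tissue was checked with dopamine neuron markers, of which 10 of 10 were detected, that is, had counts in any library. Their summed level was 1142 to 2537 CPM in CTR and 334 to 436 CPM in SS. Ret led in mean CPM over all libraries. Slc6a3 averaged 448 CPM in CTR against 6.19 CPM in SS, and Pitx3 had 0 counts in SS-3 and SS-4. The genes listed for serotonin neurons (Tph2, Slc6a4, Fev, Slc22a3) summed to 0 to 3.94 CPM. Of the highest sum, in SS-3, the low-affinity transporter Slc22a3 made up 2.82 CPM. Tph2, Slc6a4 and Fev reached at most 0.560, 0.249 and 0.565 CPM. Of the 9 hypothalamic markers, led in CPM by Pmch, 8 were detected and Avp was at 0, and their sum was 20.8 to 66.5 CPM in CTR and 74.2 to 103 CPM in SS. Pmch alone made up 0.207 to 16.7 CPM in CTR and 32.1 to 50.3 CPM in SS. The groups also did not overlap in Otp, but they did in Foxb1, Sim1, Nkx2-1, Hcrt, Hdc and Oxt. Other marker sums overlapped between the groups, among them glutamate neurons (358 to 782 CPM in CTR and 454 to 509 CPM in SS, led by Slc17a6), oligodendrocytes (20973 to 29937 and 23789 to 26447, led by Mbp) and astrocytes (753 to 947 and 782 to 886, led by Slc1a3). The part of the dopamine neuron and hypothalamic differences in any receptor value was not tested. CTR-5 and SS-5 carried Xist and next to no Y-linked transcripts, against their label, and CTR-1 and CTR-2 missed more genes of low level than the rest. Results were therefore also computed without either pair.

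No serotonin receptor gene passed the test for a difference between SS and CTR. Of the 10 genes 9 were tested and 0 were called by edgeR (quasi-likelihood test, Benjamini-Hochberg adjusted p under 0.05), where 0.0847% of all 16538 tested genes did. DESeq2 also called 0 of the 9, where it called 0.419% of all genes. At an unadjusted p under 0.05 the receptor count was again 0, compared with 6.55% of all genes. In none of the 9 genes were the SS libraries separated from the CTR libraries, compared with 4.67% of all genes (2.47% higher and 2.21% lower in SS). Of the log2 fold changes 4 were above and 5 below zero, with a median of -0.03 (0.00 over all tested genes) and a range from -0.41 to 0.82. The count of called receptors was 0 in every alternative run, including those without CTR-5 and SS-5 and without CTR-1 and CTR-2. The size of change that the data leave possible differs by gene and is given by the 95% intervals.

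**Figure D1:**
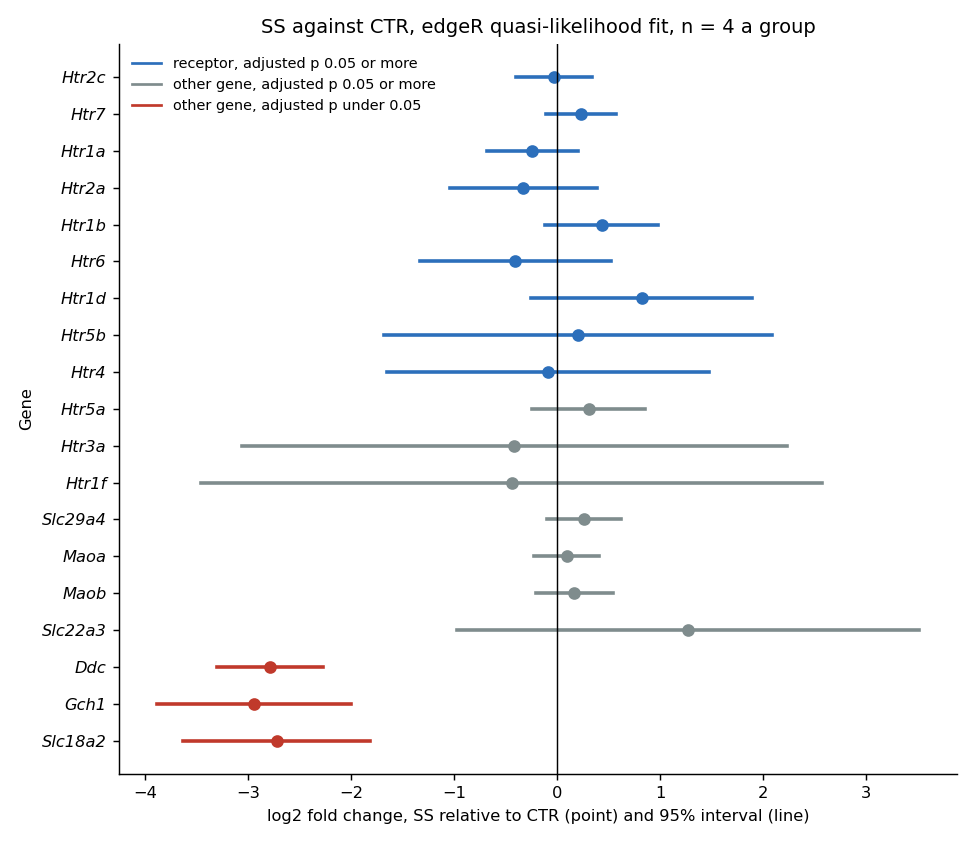
Log2 fold change of SS relative to CTR (horizontal axis) with its 95% interval for 9 serotonin receptor genes (blue), and for the other tested receptor genes and genes of serotonin synthesis, transport and breakdown (grey, or red where the adjusted p was under 0.05). All 9 blue lines cross zero, and Ddc, Gch1 and Slc18a2 lie at -2.78, -2.94 and -2.72.

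Per exon length, Htr2c was the most abundant receptor transcript, at 12.4 CPM per kb over the 8 libraries (9.10 to 17.6). Its lowest library lay above the highest library of the next gene, Htr7. Htr7 (mean 7.66, range 5.67 to 8.53 CPM per kb) and Htr1a (mean 6.16, range 4.87 to 8.64) came next and overlapped. Htr2a (2.37) and Htr1b (2.10) formed a lower level, below every Htr1a value, and overlapped as well. Htr6 (1.38), Htr1d (0.972), Htr5b (0.591) and Htr4 (0.591) followed without a gap between neighbours. With the coding length in place of all exons, Htr2c stayed first, Htr1a came before Htr7, and Htr6 fell behind Htr1d and Htr4.

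**Figure D2:**
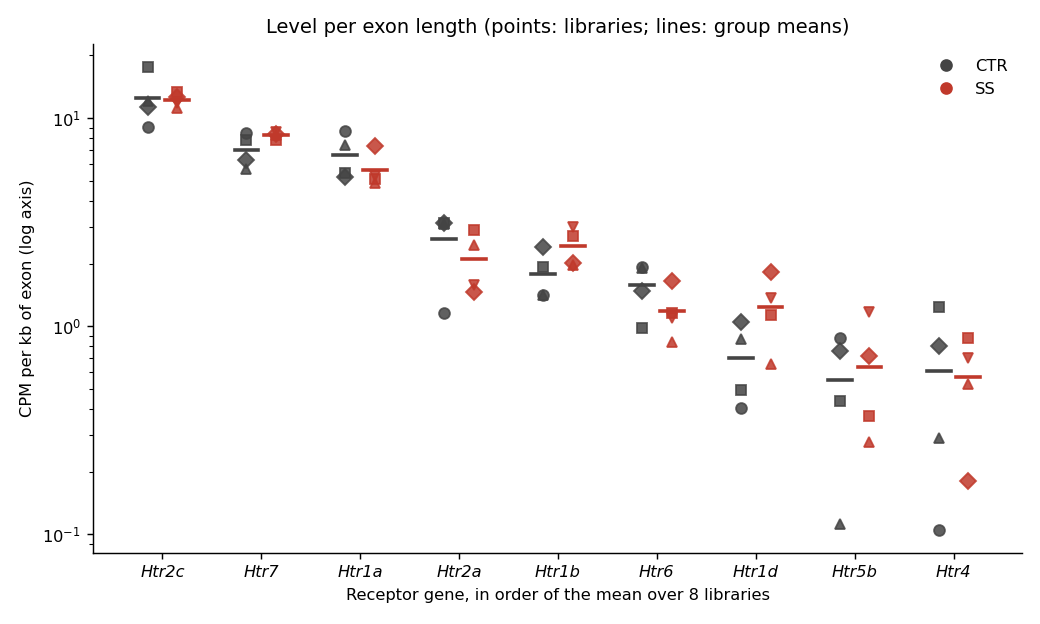
Level of each detected receptor gene in CPM per kb of exon (vertical log axis), with genes ordered by their mean over 8 libraries, 1 point per library and a line at each group mean. Htr2c lies between 9.10 and 17.6, Htr7 and Htr1a overlap below it, and Htr4 and Htr5b spread most widely at the bottom.

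The Gq-coupled receptors hold both ends of this order. Htr2c (chromosome X, 146962513 to 147197277, GRCm38, 8 exon blocks) encodes the 5-HT2C receptor, which in the VTA is best known from GABA neurons and whose transcript undergoes A-to-I editing. It stood at 84.9, 164, 112 and 105 CPM in CTR libraries 1, 2, 3 and 5, and at 125, 104, 110 and 118 CPM in SS libraries 2 to 5. The lowest and the highest value were both CTR libraries, and all SS values fell between them. The log2 fold change was -0.03 (SE 0.17, edgeR adjusted p = 0.98). Its 95% interval ran from 0.757-fold to 1.27-fold, the narrowest but one of the family on the log2 scale. As Htr2c is X-linked, the libraries with Xist are of interest, and CTR-5 and SS-5 lay within the range of the other 6. Htr2c is also abundant in choroid plexus. The summed choroid plexus markers were 285 CPM in CTR-5, of which Ttr made up 234 CPM, and 24.7 to 54.7 CPM elsewhere. Of these markers 10 of 10 were detected, but Folr1 and Slc4a5 had counts in CTR-5 alone. Prlr was at 11.0 to 23.0 CPM over all libraries. Htr2c in CTR-5 was the next to lowest of CTR. The part of choroid plexus in Htr2c was not tested, and neither was that of sex.

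Htr2a (chromosome 14, 74640840 to 74709494) encodes the 5-HT2A receptor, the target of classical psychedelics. It was at 6.51, 17.6, 17.4 and 17.6 CPM in CTR libraries 1, 2, 3 and 5, and at 16.2, 13.8, 8.85 and 8.20 CPM in SS libraries 2 to 5. CTR-1 was the lowest of all 8 libraries and stood alone in its group. The log2 fold change was -0.33 (SE 0.33, edgeR adjusted p = 0.87). Without CTR-1 it was -0.57 and remained uncalled. The summed cortical and hippocampal markers (8 of 8 detected, led in CPM by Slc17a7) were at 105, 378, 202 and 645 CPM in the CTR libraries and at 155, 149, 130 and 213 CPM in the SS libraries. CTR-1 was lowest in both measures, the other 3 CTR libraries had like Htr2a values at unlike marker sums, and SS-5 had the highest marker sum and the lowest Htr2a of SS. The part of these cells in Htr2a was not tested.

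Htr2b (chromosome 1, 86099026 to 86111970) encodes the 5-HT2B receptor, known from heart valves, gut and microglia. It had 0 counts in all 8 libraries, that is 0 of 248619858 counts, which allows a share of up to 1.21e-06% (3 counts, counting error only), or 0.062 to 0.155 CPM in a single library. Microglial markers were detected (9 of 9, led in CPM by Csf1r, 196 to 288 CPM in sum), and so were those of endothelial, mural and meningeal cells (9 of 9, led in CPM by Flt1, 168 to 222 CPM). Of its 2131 exon bases, 252 are shared with exons of Psmd1 on the opposite strand, where reads counted without strand would be ambiguous. The part of this overlap in the zero counts was not tested.

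Promoter sequences of Htr2c and Htr2b are shown because these genes of the same subfamily are the highest and the undetected member. The 250 bases before the RefSeq start (GRCm38.p6) are at chrX:146962263-146962512 on the plus strand for Htr2c and at chr1:86111981-86112230 on the minus strand for Htr2b, written 5′ to 3′. Capitals mark AGAACA, the hexamer of the glucocorticoid response element, which was searched on both strands.
Htr2c: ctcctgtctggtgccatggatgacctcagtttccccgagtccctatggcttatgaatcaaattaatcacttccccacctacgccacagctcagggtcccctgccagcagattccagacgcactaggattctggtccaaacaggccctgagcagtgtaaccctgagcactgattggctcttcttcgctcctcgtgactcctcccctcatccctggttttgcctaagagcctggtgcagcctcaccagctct
Htr2b: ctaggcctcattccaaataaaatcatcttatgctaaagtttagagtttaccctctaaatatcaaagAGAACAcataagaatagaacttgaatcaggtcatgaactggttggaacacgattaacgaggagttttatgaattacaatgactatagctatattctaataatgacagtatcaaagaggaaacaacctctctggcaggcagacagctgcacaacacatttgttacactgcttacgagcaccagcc
The Htr2b window held 1 AGAACA and the Htr2c window 0, and 16.1% of the 32851 promoter windows of this length in the RefSeq table hold it. Neither window held the GC box GGGCGG (32.7% of windows) or the TATA box TATAAA (12.4%), which do not overlap AGAACA. The GC content was 55.6% for Htr2c and 37.6% for Htr2b, with a median of 52.4% over all windows. Such a match is a description of the letters and not of binding. Promoter windows were found for 8 of the 10 genes.

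Of the Gi/o-coupled receptors, Htr1a (chromosome 13, 105443639 to 105448122, a single exon) encodes the 5-HT1A receptor, the autoreceptor of raphe neurons and a postsynaptic receptor elsewhere. It was at 38.8, 24.3, 33.3 and 23.3 CPM in CTR libraries 1, 2, 3 and 5, and at 22.9, 21.8, 23.7 and 32.8 CPM in SS libraries 2 to 5. CTR-1, CTR-3 and SS-5 were high, and the other 5 libraries lay between 21.8 and 24.3 CPM in either group. The 95% interval of the fold, 0.625 to 1.15, included 1 (log2 fold change -0.24, SE 0.20, edgeR adjusted p = 0.83).

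Htr1b (chromosome 9, 81628291 to 81633828) encodes the 5-HT1B receptor, found on axon terminals, where it reduces transmitter release. Its values were 6.67, 9.05, 6.70 and 11.4 CPM in the CTR libraries and 12.7, 9.29, 14.1 and 9.55 CPM in the SS libraries, each by ascending number. Only CTR-5 lay above the lowest SS library. The log2 fold change was 0.43 (SE 0.25) with an unadjusted edgeR p of 0.11 (adjusted p = 0.77), and the exact permutation test (two-sided, 70 assignments) gave p = 0.11. This was the smallest p of the family in either test, where 4 against 4 libraries cannot give a permutation p below 0.029. The antisense gene D430036J16Rik shares 852 of the 4724 exon bases of Htr1b and collected at most 50 counts per library.

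Htr1d (chromosome 4, 136423524 to 136444398) encodes the related 5-HT1D receptor, a target of triptans. It was at 1.29, 1.58, 2.76 and 3.34 CPM in CTR against 3.63, 2.10, 4.37 and 5.82 CPM in SS. It had the highest log2 fold change of the family, 0.82 (SE 0.49, edgeR adjusted p = 0.78), and SS-3 was the library that overlapped CTR. The interval from 0.839-fold to 3.71-fold rests on 25 to 152 counts per library.

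Of the Gs-coupled receptors, Htr7 (chromosome 19, 35958734 to 36057507) encodes the 5-HT7 receptor, known for roles in sleep and circadian timing. It was at 28.7, 26.6, 19.3 and 21.3 CPM in CTR against 26.7, 28.3, 29.0 and 28.4 CPM in SS. The SS libraries were close together, with a coefficient of variation of 3.57% compared with 18.3% in CTR, and CTR-1 and CTR-2 lay among or near them. The log2 fold change was 0.23 (SE 0.16, edgeR adjusted p = 0.80) with the narrowest interval of the family, 0.926-fold to 1.49-fold. Without CTR-1 and CTR-2 it was 0.47 (SE 0.13, edgeR adjusted p = 0.49) and remained uncalled. A greater spread in CTR was common among genes, as 82.9% of all tested genes had a higher coefficient of variation in CTR than in SS. Of the 9 receptors, 7 did. Without CTR-1 the share was 69.9% of all tested genes, and 7 of the 9 receptors. With all libraries, the median coefficient of variation of the 9 receptors was 28.9% in CTR and 28.4% in SS. Over all tested genes it was 25.5% and 13.3%.

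Htr6 (chromosome 4, 139061108 to 139075570) encodes the 5-HT6 receptor, found on neuronal primary cilia. It was at 4.50, 2.30, 4.45 and 3.44 CPM in CTR against 2.70, 1.97, 2.56 and 3.85 CPM in SS. The log2 fold change was -0.41 (SE 0.42, edgeR adjusted p = 0.88). Its high libraries, CTR-1, CTR-3 and SS-5, were those of Htr1a.

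Htr4 (chromosome 18, 62324204 to 62496577) encodes the 5-HT4 receptor and varied most on the log2 scale. CTR-1 held 10 counts (exact Poisson 95% interval 4.8 to 18.4 counts), or 0.517 CPM, and CTR-2 held 150 counts (127 to 176), or 6.06 CPM. CTR-3 and CTR-5 were at 1.43 and 3.95 CPM, and the SS libraries at 4.30, 2.59, 3.46 and 0.886 CPM. The spread among CTR libraries was thus wider than counting error, and the log2 fold change of -0.09 (SE 0.72) had a 95% interval from 0.318-fold to 2.78-fold. Without CTR-2 it was 0.50 and remained uncalled.

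Htr5b (chromosome 1, 121509842 to 121528465) encodes a receptor that in rodents marks the habenula and parts of the raphe, and whose human counterpart is a pseudogene. It held 5 to 60 counts per library. Its values were 1.71, 0.848, 0.216 and 1.48 CPM in CTR against 0.717, 0.539, 2.26 and 1.39 CPM in SS. The log2 fold change was 0.20 (SE 0.86), and its interval, from 0.311-fold to 4.25-fold, was the widest of the 9. Markers of the habenula and interpeduncular nucleus (8 of 8 detected, led in CPM by Nwd2) summed to 28.1 to 58.9 CPM in CTR and 17.9 to 40.9 CPM in SS.

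**Figure D3:**
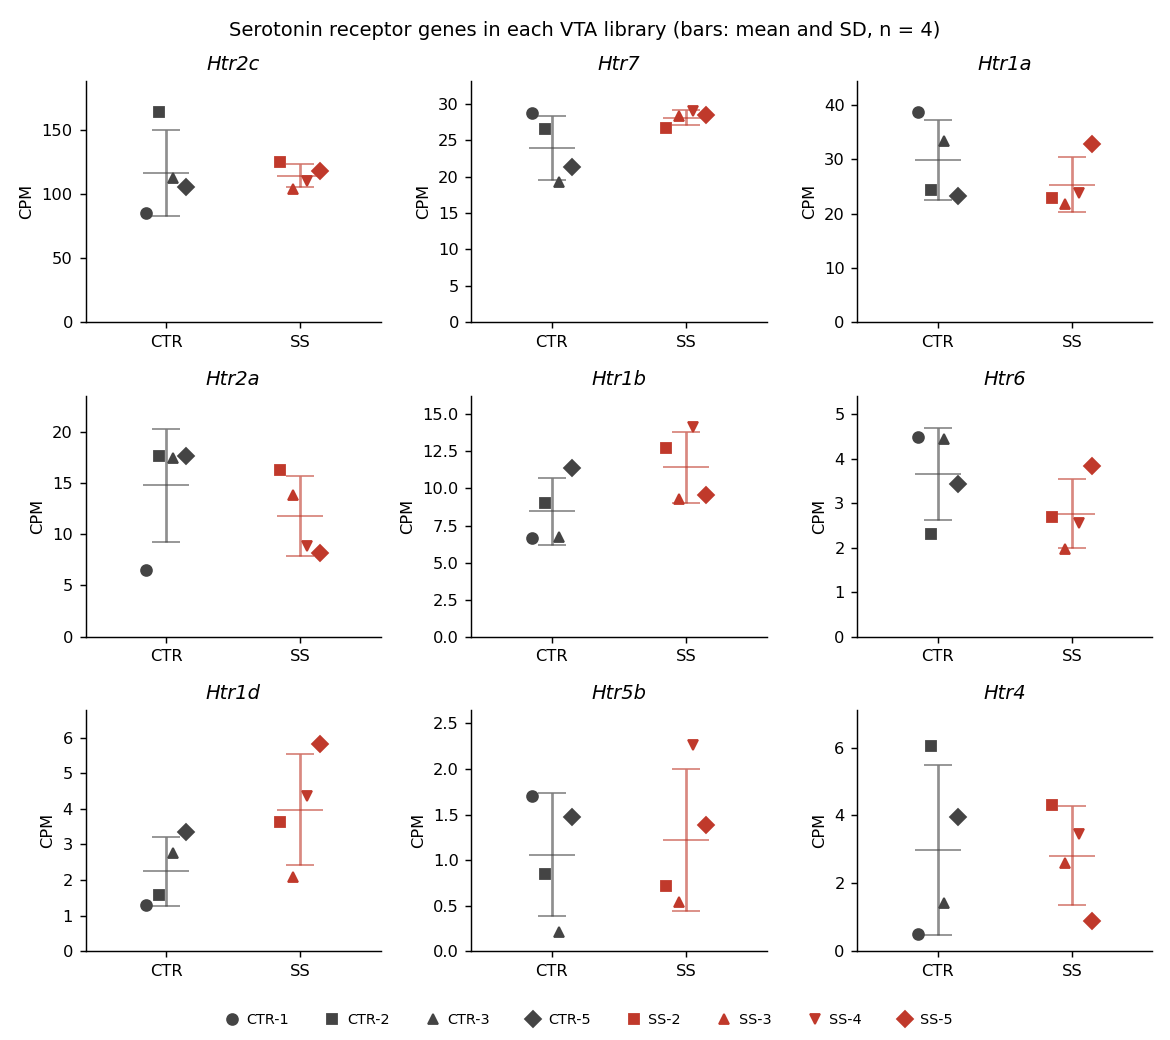
CPM of the 9 detected serotonin receptor genes in each library (vertical axis from 0, 1 panel per gene), with CTR in grey, SS in red, a marker shape for each library, and bars for the mean and SD of 4 libraries. The groups overlap in every panel, and CTR-1 stands alone at the bottom of the Htr2a panel with 6.51 CPM.

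The balance of the G protein classes was read as the share of each class in the summed CPM per kb of the 10 genes. Receptor genes outside the 10, among them Htr5a with a mean of 14.1 CPM over the 8 libraries, do not enter these shares. The Gq share was 43.9 ± 8.77% in CTR and 41.9 ± 3.56% in SS (SD, n = 4 each). The Gi/o share was 27.2 ± 5.37% and 27.0 ± 3.03%, and the Gs share 27.2 ± 3.78% and 29.3 ± 1.55%. None of the 3 shares passed an exact permutation test, two-sided over 70 assignments (p = 0.60, 0.94 and 0.37, and 0.94 each after Benjamini-Hochberg adjustment over 5 measures). CTR-1 had the lowest Gq share (32.0%) and CTR-2 the highest (53.1%), so the extremes were both controls. Without regard to length, Htr2c gave 48.9% of the receptor counts in CTR-1 (Wilson 95% interval 47.2 to 50.6%), 65.0% in CTR-2 (63.8 to 66.2%) and 55.1 to 58.1% in the other 6 libraries. The summed level of the family was 34.1 ± 3.31 CPM per kb in CTR and 34.3 ± 2.24 in SS (exact permutation p = 0.94).

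**Figure D4:**
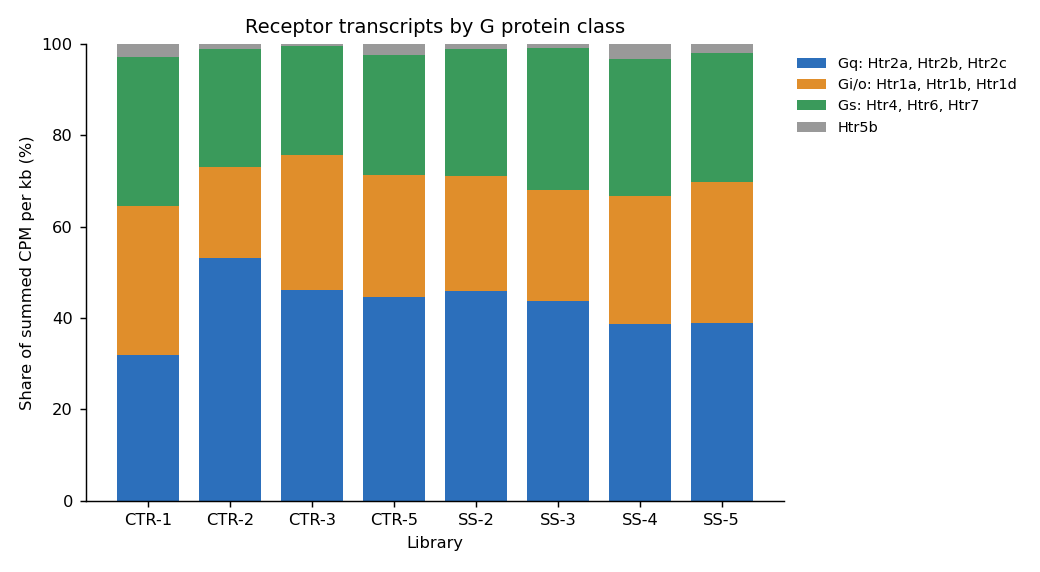
Share of the summed CPM per kb of the 10 receptor genes (vertical axis, %) taken by Gq-, Gi/o- and Gs-coupled receptors and by Htr5b, 1 stacked bar per library. The Gq share runs from 32.0% in CTR-1 to 53.1% in CTR-2, and the 4 SS libraries lie between these values.

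No pair of receptors had a correlation across libraries that passed adjustment. The values of the pairs with the highest and the lowest r were as follows. Over the 8 libraries, log2(CPM + 0.1) of Htr1a and Htr6 had a Pearson r of 0.87 (exact permutation p = 0.0049) and a Spearman rho of 0.79 (exact permutation p = 0.028). For Htr1a and Htr4, r was -0.90 (exact permutation p = 0.0066) and rho was -0.60 (exact permutation p = 0.13). After Benjamini-Hochberg adjustment over the 36 pairs tested, neither passed (adjusted p = 0.12 for both r, and 0.34 and 0.53 for rho). Without CTR-1 and CTR-3, the libraries farthest from the median of Htr1a, r was 0.72 and -0.79. After removal of the group means it was 0.84 and -0.94. Of the 36 pairs, 5 had an unadjusted p under 0.05 for r.

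The genes whose log2 CPM followed the 3 most abundant receptors most closely over the 8 libraries were Fam193a (r = 0.99, rho = 0.98) and Tusc1 (r = 0.99, rho = 0.90) for Htr2c. For Htr7 they were Disp1 (r = 0.98, rho = 0.81) and Nme2 (r = 0.95, rho = 0.93), and for Htr1a Stmn1 (r = 0.98, rho = 0.98) and B3gnt9 (r = 0.97, rho = 0.71). Each is the highest or next highest correlation among all tested genes over the same 8 libraries, and serves as a description only.

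Of the other 4 receptor genes, Htr5a, which encodes the 5-HT5A receptor, averaged 12.6 ± 3.84 CPM in CTR against 15.6 ± 3.85 CPM in SS (SD, n = 4 per group). Its log2 fold change was 0.31 (SE 0.25, edgeR adjusted p = 0.83). Htr3a, the obligatory subunit of the 5-HT3 channel, held 0 to 79 counts and Htr1f 0 to 46 counts per library. Both were highest in CTR-2 and CTR-5 and had 0 counts in CTR-3. Htr3b, the partner subunit of Htr3a, had 0 counts in all 8 libraries. Of all 14 receptor genes, 12 were tested and 0 were called.

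Of the 11 genes of serotonin synthesis, transport and breakdown, 7 were tested, 4 with a log2 fold change above and 3 below zero. At an edgeR adjusted p under 0.05, 3 were called lower and 0 higher in SS, compared with 0.0847% and 0% of all tested genes. The 3 were Ddc (aromatic amino acid decarboxylase), Gch1 (first enzyme of tetrahydrobiopterin synthesis) and Slc18a2 (vesicular monoamine transporter), all of which dopamine neurons also use. The 95% intervals of their log2 fold changes ended between -2.27 (Ddc) and -1.81 (Slc18a2). These ends lie below the lower end of the interval of each of the 9 tested receptors of the family, the lowest of which was -1.69 for Htr5b. They do not for Htr1f and Htr3a, tested receptor genes outside the family as taken here, whose lower ends were -3.46 and -3.06. The 3 genes belong to a list that the study drew from these same libraries, so their direction is not independent evidence. The call of Gch1 was lost with voom (adjusted p = 0.053) and with the replicate block (edgeR adjusted p = 0.12), which compares only libraries that share a number. It was also lost without CTR-5 and SS-5 (edgeR adjusted p = 0.18) and without CTR-1 and CTR-2 (0.061). The call of Slc18a2 was lost without CTR-1 and CTR-2 (edgeR adjusted p = 0.055). With 1 library left out, the call of Gch1 was lost without CTR-5, SS-3, SS-4 or SS-5 (edgeR adjusted p up to 0.18) and that of Slc18a2 without CTR-1, CTR-5, SS-2, SS-3 or SS-4 (up to 0.29). Genes particular to serotonin neurons were almost absent. The tryptophan hydroxylase Tph2 had at most 22 counts in a library, the transporter Slc6a4 at most 12 and the transcription factor Fev at most 23. Tph1, the other tryptophan hydroxylase and not in the serotonin neuron list, had at most 4. None of these genes passed the filter. The breakdown enzymes Maoa and Maob and the low-affinity transporter Slc29a4 were well detected and had log2 fold changes of 0.09 (SE 0.14), 0.17 (SE 0.17) and 0.26 (SE 0.16), with edgeR adjusted p-values of 0.92, 0.88 and 0.79. Slc22a3, another low-affinity transporter, averaged 0.788 CPM in CTR against 1.92 CPM in SS (log2 fold change 1.27, SE 1.03, edgeR adjusted p = 0.83).

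Downstream of the receptors, 42 genes of G proteins, their effectors and receptor partners were tested and 0 were called by edgeR or DESeq2. Their median log2 fold change was -0.03. At an unadjusted p under 0.05 there were 7 (16.7%, compared with 6.55% of all genes), and in 6 (14.3%, compared with 4.67%) the groups did not overlap. The list counts were 0 of 11 for the Gi/o group, 1 of 10 for the Gq group, 3 of 13 for the Gs group and 2 of 8 for partners and RNA editing enzymes. These 6 genes, named after their values were seen, were Prkca, Adcy2, Adcy3, Adcy6, Arrb2 and Adar. Prkca, the protein kinase C alpha gene, averaged 110 ± 51.5 CPM in CTR against 60.8 ± 1.65 CPM in SS. Its log2 fold change was -0.86 (SE 0.24, edgeR adjusted p = 0.57). The adenylyl cyclase genes went in both directions, with log2 fold changes of -0.26 for Adcy2, 0.24 for Adcy3 and 0.48 for Adcy6 (edgeR adjusted p = 0.75 for each). Arrb2, which encodes a beta-arrestin that desensitizes receptors, was at 55.0 ± 8.92 and 69.5 ± 2.10 CPM (log2 fold change 0.34, edgeR adjusted p = 0.75). Adar, which encodes an RNA editing enzyme, averaged 218 CPM in CTR against 260 CPM in SS (log2 fold change 0.25, edgeR adjusted p = 0.75). Gnao1, Gnaq, Gnas and Dlg4 had the highest CPM of their lists, without regard to length, and had log2 fold changes between -0.10 and -0.03. Kcnj6, which encodes the GIRK2 channel subunit of dopamine neurons, averaged 13.5 ± 6.85 CPM in CTR against 9.25 ± 1.14 CPM in SS (log2 fold change -0.55, SE 0.33, adjusted p = 0.78).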

How the data were processed

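RNA of 4 CTR and 4 SS mice was sequenced as single-end reads of 75 bp. After trimming (Cutadapt) and STAR alignment to mm10, the authors obtained gene counts from htseq-count with Ensembl release 102 and deposited them as whole numbers, neither normalized nor pooled. Tool versions and the strand setting are not given in the sources used here. Groups and replicate numbers came from the sample titles. The series' design text names 5 mice per group, and 4 per group were analysed here. In edgeR 4.0.16 (R 4.3.3), filterByExpr (minimum count 10, total 15) and TMM preceded glmQLFit and glmQLFTest with group as the model, adjusted by Benjamini-Hochberg over 16538 genes. SE is the size of the log2 fold change divided by the root of F, and intervals are 95%. Count intervals and floors cover counting error only. Exon lengths and positions are from GENCODE M21 (GRCm38, the build of mm10), which may differ from Ensembl 102, and promoters are from RefSeq (GRCm38.p6). Each library is a separate mouse, but up to 2 pups per sex came from a litter and litters are not given.

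The members and lists were chosen with earlier results of these data known. Genes named are the 10 receptors, all genes of the other receptor and serotonin metabolism lists, effector genes called by either tool, the top gene by CPM of every list and marker list (1 marker list is not reported here), and the 2 genes most correlated with each of the 3 most abundant receptors. Motifs, receptor pairs, non-overlapping effector genes, Kcnj6 and the markers named beside the top gene of a list were chosen after the data were seen. Alternatives were DESeq2 1.42.0, voom of limma 3.58.1, other normalizations, filters, thresholds and estimates, a covariate for sex transcripts, a replicate block and libraries left out.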

Additional observations from a re-analysis of the deposited data

Results flagged for a closer look

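A library standing apart was sought by dividing its distance from the nearest other library by the range of its group of 4, and 5 of 62 groups passed Dixon's 95% critical value, where chance gives about 1 in 20. Htr2a in CTR-1 was the lowest of its group (ratio 0.981), at 6.51 CPM compared with 17.4 to 17.6 CPM in the other 3 CTR libraries. Slc18a2 in SS-5 was the highest of its group (0.959), at 46.6 CPM compared with 15.9 to 17.2 CPM. The summed choroid plexus markers were highest in CTR-5 within CTR (0.903) and in SS-3 within SS (0.933, at 54.7 CPM compared with 48.0 to 48.5 CPM). The summed markers of the habenula and interpeduncular nucleus were highest in SS-5 within SS (0.870).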

How the results depend on the processing

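The number of called receptors was 0 in all 20 alternatives. The 14 genes called over the whole table became 81 with DESeq2, 27 with the bias-adjusted estimate, 22 without a filter, 22 at a mean count of at least 50 (which leaves 8 receptors tested), 7 at an adjusted p under 0.01, 9 without CTR-5 and SS-5, and 6 to 19 with 1 library left out. The 3 called genes of serotonin metabolism became 1 at an adjusted p under 0.01 and 1 without CTR-1 and CTR-2, and 1 to 3 with 1 library left out. Signs turned only among uncalled values, and the cause was not tested. With voom the log2 fold change was 0.0022 for Htr2c, 0.10 for Htr4, 0.98 for Htr1f and 1.11 for Htr3a. Without CTR-1 and CTR-2 it was 0.074 for Htr2c, 0.059 for Htr4, 0.014 for Htr3a and -0.0047 for Maoa, without CTR-5 and SS-5 it was 0.36 for Htr4, and with the bias-adjusted estimate it was -0.032 for Htr5b. With 1 library left out it ran from -0.15 to 0.18 for Htr2c, -0.43 to 0.50 for Htr4, -0.27 to 0.52 for Htr5b, -0.86 to 0.49 for Htr1f and -0.84 to 0.51 for Htr3a. Of 9 receptors, 3 kept their rank by level with the coding length and 5 in SS alone. Over all tested genes, libraries of the same replicate number did not deviate together (correlations -0.0062, -0.0077 and 0.06 for numbers 2, 3 and 5). CTR-5 and SS-5 both carried Xist, and whether libraries of a number share a litter or a batch was not tested. With the replicate block 9 genes were called, 0 of them receptors, and Htr3a was at 0.23. CTR-1 and SS-4 have no library of their number in the other group, so the group effect of this run rests on numbers 2, 3 and 5. Htr4, Htr5b, Htr6 and Htr1d rest on 5 to 180 counts per library.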
